A study of Mus musculus with 8 samples.

Results

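The interferon-stimulated genes described here are 9 genes, Rsad2, Usp18, Ifit1, Ifit2, Ifit3, Isg15, Irf7, Irf9 and Bst2, out of 20972 named genes on the array. They were taken by name, through the transcript accession of each probe, and all 9 were found, with 10 probes in all because Isg15 has a pair of probes. Red gastrocnemius, the oxidative part of a calf muscle, was compared between 4 mice homozygous for a mutant Pus1 gene and 4 wild type mice, aged 14 to 16 weeks, with no treatment. Mice of both genotypes were C57BL/6J, reached by backcrossing over 5 generations. Pus1 encodes pseudouridine synthase 1, which converts uridine to pseudouridine in tRNAs of the cytosol and of mitochondria. The series title calls the mutation a knockout, and neither the altered stretch of the gene nor the cells concerned are given in the labels. Each of the 4 2-colour arrays held 1 mutant and 1 wild type mouse of the same number and sex, with males on arrays 1 and 2 and females on arrays 3 and 4. The mutant was labelled with Cy5 on arrays 1 and 3 and with Cy3 on arrays 2 and 4.

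Interferons are secreted proteins that infected or damaged cells release, and type I interferon binds a receptor made of Ifnar1 and Ifnar2 chains. The receptor activates the kinases Jak1 and Tyk2, and a complex of transcription factors that includes Stat2 and Irf9 then binds a DNA motif called the interferon-stimulated response element. Genes with this element include antiviral effectors, the ubiquitin-like protein Isg15 and its protease Usp18, which also damps the receptor. Double-stranded RNA or DNA leaking from stressed mitochondria can start the same response in many cell types, which is general background and not a result of these data.

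Promoter sequence is shown for the members whose promoter held the response element. The members were chosen as interferon-stimulated genes, so finding the element in them is partly built into that choice and is given as a description. The RefSeq promoter table of build GRCm38.p6 gives 250 bases before and 50 bases after an annotated start, and 8 of the 9 members matched it, with 10 promoters. The motif searched was its core, GAAA followed by any 2 bases (NN) and then GAAA again, on both strands, so that a pair of TTTC blocks with 2 bases between them is the same motif on the other strand. It occurred in 5 of the 10 member promoters, belonging to 5 of these 8 members. It also occurred in 18 of 54 promoters of other interferon-stimulated genes from a separate list (16 of 44 genes), and in 3.44% of all 32851 promoters. Capitals mark the matches, and where matches overlap the capitals run together. The windows lie at chr12:26456403-26456702 (minus strand) for Rsad2, chr19:34640639-34640938 (plus strand) for Ifit1, chr19:34583279-34583578 (plus strand) for Ifit3, chr4:156200769-156201068 (minus strand) for Isg15 and chr8:71537423-71537722 (minus strand) for Bst2.
Rsad2: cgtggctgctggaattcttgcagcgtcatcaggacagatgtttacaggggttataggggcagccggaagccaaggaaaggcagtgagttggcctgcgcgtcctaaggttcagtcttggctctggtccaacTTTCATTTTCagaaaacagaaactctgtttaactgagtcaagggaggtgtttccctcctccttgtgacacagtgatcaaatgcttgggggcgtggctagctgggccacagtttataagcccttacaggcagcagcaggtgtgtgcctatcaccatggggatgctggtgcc
Ifit1: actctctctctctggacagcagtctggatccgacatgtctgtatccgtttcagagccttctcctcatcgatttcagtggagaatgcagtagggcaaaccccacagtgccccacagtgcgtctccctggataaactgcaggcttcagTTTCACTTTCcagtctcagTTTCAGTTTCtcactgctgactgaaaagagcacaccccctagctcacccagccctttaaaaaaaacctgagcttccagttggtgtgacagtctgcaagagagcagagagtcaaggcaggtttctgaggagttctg
Ifit3: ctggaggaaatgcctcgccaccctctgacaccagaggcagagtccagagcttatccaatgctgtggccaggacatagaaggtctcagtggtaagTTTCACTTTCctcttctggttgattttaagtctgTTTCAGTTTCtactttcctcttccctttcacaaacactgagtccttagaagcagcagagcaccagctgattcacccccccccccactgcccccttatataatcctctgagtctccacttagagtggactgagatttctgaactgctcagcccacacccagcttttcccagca
Isg15: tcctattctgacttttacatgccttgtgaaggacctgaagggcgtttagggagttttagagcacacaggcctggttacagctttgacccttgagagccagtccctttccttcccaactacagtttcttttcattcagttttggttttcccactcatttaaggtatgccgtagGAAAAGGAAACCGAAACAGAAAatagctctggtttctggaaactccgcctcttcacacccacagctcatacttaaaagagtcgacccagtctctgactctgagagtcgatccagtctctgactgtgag
Bst2: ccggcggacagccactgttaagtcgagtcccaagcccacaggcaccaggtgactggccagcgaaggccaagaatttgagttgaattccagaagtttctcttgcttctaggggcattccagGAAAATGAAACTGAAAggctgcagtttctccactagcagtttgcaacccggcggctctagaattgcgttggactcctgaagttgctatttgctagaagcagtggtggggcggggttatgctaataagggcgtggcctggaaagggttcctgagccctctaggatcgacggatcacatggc

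Isg15 held 3 overlapping matches, the first beginning at position -78 from the start, and Bst2 held 2 overlapping matches beginning at -130 and -124. Ifit1 and Ifit3 held 2 separate matches each, at -104 and -85 in Ifit1 and at -156 and -122 in Ifit3. Rsad2 held 1 match at -120. The promoters of Ifit2, Irf7 and Irf9 held no run of these letters in the windows used. A second motif, TTCNNNGAA, the gamma-activated sequence, was found in 2 of the 10 member promoters, belonging to Ifit2 and Bst2, and in 8.30% of all promoters.

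The arrays themselves were checked first on the targeted gene and on the tissue. Pus1 log2 levels were 6.73, 6.88, 6.60 and 7.12 in mutants 1 to 4, against 8.68, 8.41, 8.73 and 9.13 in wild types 1 to 4. The probe was well above background in 0 of 4 mutants and 4 of 4 wild types, which bounds the mutant level at least 3.57-fold lower (limma adjusted p = 0.0454). All 10 muscle fibre markers, among them Ckm and Acta1, passed the filter on dim probes. The share of probes flagged well above background ran from 39.8% to 42.5% in mutants and from 39.7% to 47.3% in wild types. Of 11453 genes tested across the arrays, limma called 2 between the genotypes (0.0175%), and 672 (5.87%) had an unadjusted p under 0.05. In whole muscle RNA, a change in how many cells of a type are present cannot be told apart from a change in RNA per cell.

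No member passed the test for a difference between the genotypes. Of the 9 members, 7 passed the filter and were tested, and 0 had an adjusted p under 0.05 in limma, beside the 0.0175% called among all genes. At an unadjusted p under 0.05 there was 1 member, Rsad2, out of 7, beside 5.87% of all genes, or 3.41% with the level higher in mutants. Fitted log2 changes were above 0 in 3 members and below 0 in 4, with a median of -0.047, against a median of 0.012 over all 11453 genes. The mutant and wild type ranges overlapped in all 7 tested members, and ranges that did not overlap were found in 1.20% of all tested genes. The values by mouse nevertheless differed widely, and mutant 4, a female, had the highest level of several members.

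**Figure D1:**
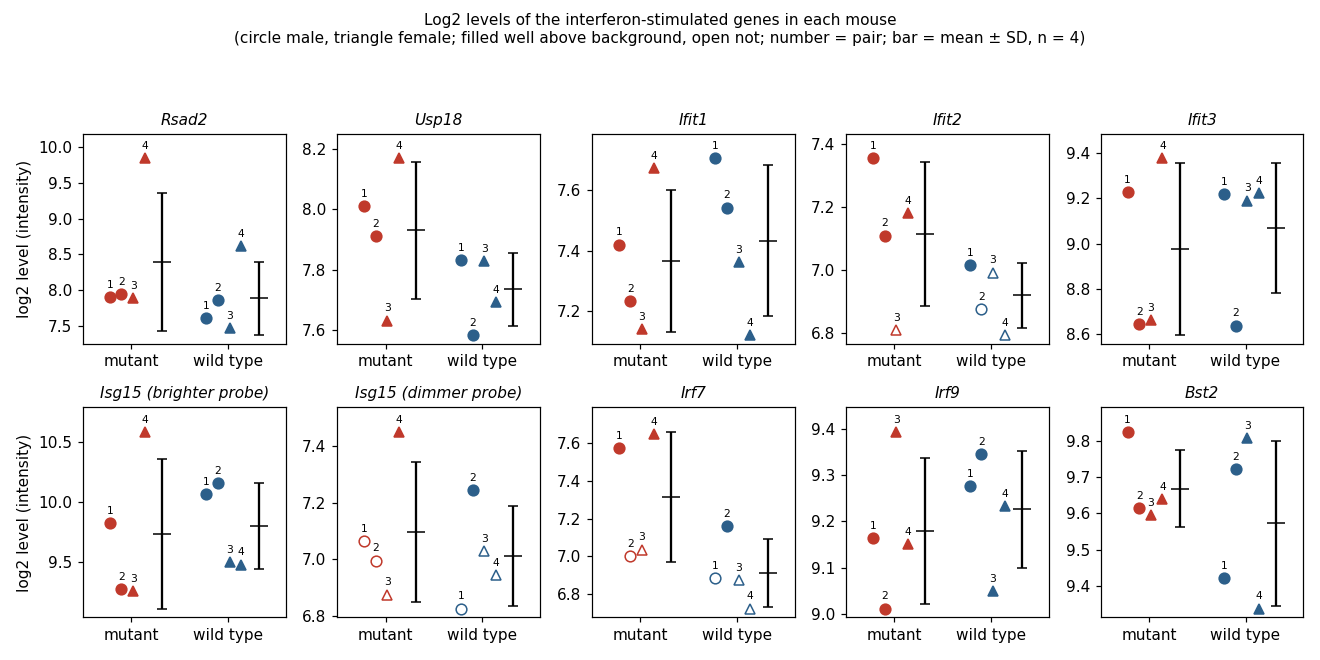
Log2 level (log2 of normalised intensity, vertical axis) of each of the 10 probes in the 4 mutants and 4 wild types, with the mean ± SD of each genotype. Mutant 4 stands above the other 7 mice for Rsad2 (9.85), Usp18 (8.17), Ifit3 (9.38), Isg15 (10.59 and 7.45) and Irf7 (7.65).

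The antiviral effectors come first. Rsad2 encodes viperin, a radical SAM enzyme that makes a chain-terminating nucleotide. Its log2 levels were 7.90, 7.95, 7.89 and 9.85 in mutants 1 to 4, against 7.61, 7.86, 7.46 and 8.61 in wild types 1 to 4. Both mice of array 4 were the highest of their genotype, and mutant 4 lay far above the other 3 mutants. Rsad2 averaged 8.40 ± 0.97 in mutants and 7.88 ± 0.51 in wild types (SD, n = 4 each). The array ratios, mutant over wild type, were 0.29, 0.094, 0.42 and 1.24, so Rsad2 was higher in the mutant on 4 of 4 arrays, as were 6.50% of all tested genes, and no other tested member lay on 1 side of 0 on all 4 arrays, as 10.4% of all tested genes did. The fitted log2 change was 0.51 (SE 0.19, n = 4 arrays), a 1.43-fold difference that did not pass (unadjusted p = 0.0410, limma adjusted p = 0.707). The change was 0.85 with the scanner's own log ratio (limma adjusted p = 0.712). Without replicate 4 the change was 0.23 (limma adjusted p = 0.528), and without replicate 2 it was 0.80 (limma adjusted p = 0.537).

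The Ifit genes encode tetratricopeptide-repeat proteins that bind viral RNA or the translation factor eIF3, and all 3 lie on chromosome 19. Ifit1, which binds RNA caps that lack methylation, had log2 levels of 7.42, 7.24, 7.14 and 7.67 in mutants 1 to 4, against 7.71, 7.54, 7.36 and 7.12 in wild types 1 to 4. Within pairs 1 to 3 the wild type was the higher mouse, and in pair 4 the mutant was. The Ifit1 ratios were -0.29, -0.31, -0.22 and 0.55, and the fitted change was -0.066 (SE 0.15, limma adjusted p = 0.926). Ifit3, a partner that stabilises Ifit1 in human cells, had log2 levels of 9.23, 8.64, 8.66 and 9.38 in mutants 1 to 4, against 9.22, 8.64, 9.19 and 9.23 in wild types 1 to 4. Low values near 8.64 came from mutants 2 and 3 and from wild type 2, so the genotypes overlapped over nearly their whole range. The fitted Ifit3 change was -0.091 (SE 0.11, limma adjusted p = 0.850), with ratios of 0.0067, 0.0068, -0.53 and 0.15. The Ifit3 probe may also take up the transcript of the closely related Ifit3b, whose own probe gave ratios of -0.0099, 0.44, -0.66 and 0.44.

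Ifit2 did not pass the filter, since it was well above background in 3 of 4 mutants and 1 of 4 wild types. Its log2 levels were 7.35, 7.11, 6.81 and 7.18 in mutants 1 to 4, against 7.02, 6.88, 6.99 and 6.80 in wild types 1 to 4. The highest values were from mutants, but mutant 3 was close to the lowest wild type. The Ifit2 ratios were 0.34, 0.23, -0.18 and 0.39. In a fit with no filter the Ifit2 change was 0.19 (SE 0.11, limma adjusted p = 0.776).

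Bst2 encodes tetherin, a membrane protein that holds budding virus particles at the cell surface and is also a marker of plasmacytoid dendritic cells in mice. Its log2 levels were 9.82, 9.62, 9.60 and 9.64 in mutants 1 to 4, against 9.42, 9.72, 9.81 and 9.34 in wild types 1 to 4. Neither genotype was consistently the higher, with ratios of 0.40, -0.11, -0.21 and 0.30. The fitted change was 0.096 (SE 0.13, limma adjusted p = 0.873).

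The ubiquitin-like modifier and its protease gave different patterns. Isg15 is conjugated to other proteins after interferon treatment, and its brighter probe had log2 levels of 9.83, 9.27, 9.26 and 10.59 in mutants 1 to 4, against 10.06, 10.16, 9.50 and 9.48 in wild types 1 to 4. Mutant 4 was the highest of the 8 mice, whereas mutants 2 and 3 were the lowest, and both male wild types lay above both female wild types. The ratios of -0.24, -0.88, -0.24 and 1.11 had a SD of 0.84, at the 96.9 percentile of all tested genes. The fitted change was -0.063 (SE 0.31, limma adjusted p = 0.966), with a 95% interval of -0.86 to 0.74. It was 0.43 without replicate 2 (limma adjusted p = 0.994) and -0.56 without replicate 4 (limma adjusted p = 0.456), so single pairs set its sign. The dimmer Isg15 probe, well above background in mutant 4 and wild type 2 alone, had log2 levels of 7.06, 6.996, 6.88 and 7.45 in mutants 1 to 4, against 6.83, 7.24, 7.03 and 6.94 in wild types 1 to 4. Its highest mouse was also mutant 4, and it gave ratios of 0.24, -0.25, -0.15 and 0.50. Its sign differed from that of the brighter probe on array 1, and on arrays 2, 3 and 4 the signs were the same.

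Usp18 encodes the protease that removes Isg15 from proteins and that limits signalling from the type I receptor. Its log2 levels were 8.01, 7.91, 7.63 and 8.17 in mutants 1 to 4, against 7.83, 7.58, 7.83 and 7.69 in wild types 1 to 4. Mutants 1, 2 and 4 were each above all 4 wild types, and mutant 3 was below all but 1 of them. The ratios were 0.18, 0.33, -0.20 and 0.48. Usp18 averaged 7.93 ± 0.23 in mutants and 7.73 ± 0.12 in wild types (SD, n = 4 each), and the fitted change of 0.20 (SE 0.091) did not pass (limma adjusted p = 0.707). The change was 0.44 with the scanner's own log ratio (limma adjusted p = 0.727).

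The transcription factors were Irf7, which amplifies interferon production, and Irf9, the DNA-binding partner of Stat2. Irf7 was dim, well above background in mutants 1 and 4 and in wild type 2, and was not tested with the filter. Its log2 levels were 7.57, 7.003, 7.04 and 7.65 in mutants 1 to 4, against 6.88, 7.16, 6.87 and 6.72 in wild types 1 to 4. Mutants 1 and 4 were above every wild type, and mutants 2 and 3 were below wild type 2 and above the other 3 wild types. The Irf7 ratios were 0.69, -0.16, 0.16 and 0.93. With no filter the Irf7 change was 0.41 (SE 0.19, limma adjusted p = 0.776). Irf9 was well above background in all 8 mice, with log2 levels of 9.16, 9.01, 9.39 and 9.15 in mutants 1 to 4, against 9.28, 9.35, 9.05 and 9.23 in wild types 1 to 4. Its spread was small, and the pair with the highest mutant also held the lowest wild type. The Irf9 ratios were -0.11, -0.34, 0.35 and -0.082, and the fitted change was -0.047 (SE 0.10, limma adjusted p = 0.926).

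**Figure D2:**
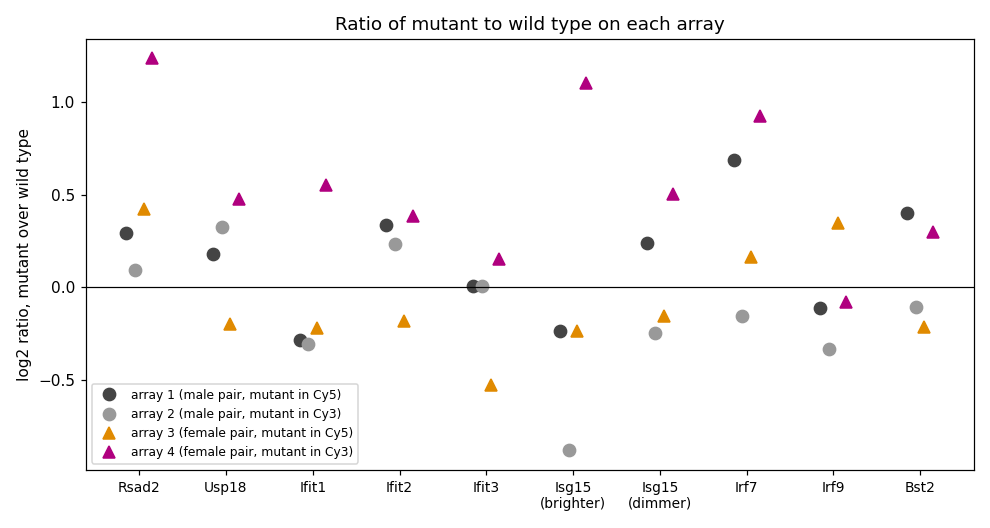
Log2 ratio of mutant over wild type (vertical axis) for each probe, with a point for each of the 4 arrays. Array 4 gave the highest ratio of all 4 arrays for Rsad2 (1.24), Isg15 (1.11), Irf7 (0.93), Ifit1 (0.55), Usp18 (0.48), Ifit2 (0.39) and Ifit3 (0.15), and not for Irf9 (-0.082) or Bst2 (0.30).

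The 4 pairs gave different ratios for the members. On arrays 1 to 4 the ratio was above 0 in 4, 3, 2 and 6 of the 7 tested members, beside 54.4%, 51.9%, 52.5% and 48.5% of all tested genes. The median ratio of the members was 0.0067, -0.11, -0.21 and 0.48, against medians of 0.028, 0.012, 0.013 and -0.0079 over all tested genes. Ratios above 0.5 occurred on array 4 in Rsad2, Isg15 and Ifit1, where 2.37% of all tested genes reached that size, and in 0 tested members on arrays 1 to 3, where 3.34%, 3.53% and 4.11% did. Measured from each gene's own mean over the 8 mice, the members averaged 0.055, -0.19, -0.20 and 0.49 in mutants 1 to 4, against 0.020, -0.021, -0.11 and -0.041 in wild types 1 to 4. In this mean over members the 4 wild types lay close together, and the mutants spread further. By gene, the wild type SD was above the mutant SD for Bst2 (0.23 against 0.11) and Ifit1 (0.25 against 0.23). It was below the mutant SD for the other tested members. In the authors' deposited table, the array 4 differences were 1.49 for Rsad2, 1.10 for the brighter Isg15 probe, 1.18 for Ifit1 and 1.96 for Irf7, in the same direction. Differences above 0.5 were not limited to array 4 in that table. Rsad2 was at 0.96 on array 1 and 0.63 on array 3, and Usp18 at 0.55 on array 1 and 1.01 on array 2, its highest. The tested probes of the other members were under 0.5 on arrays 1 to 3. Of the untested members, Irf7 was at 1.70 on array 1. Ifit2, also untested, was at 0.46, 1.32, -1.08 and 1.44 on arrays 1 to 4. The fitted dye term lay between -0.21 and -0.15 for Rsad2, Usp18, Ifit1, Ifit3 and Isg15, and was 0.16 for Irf9 and -0.0011 for Bst2. A high ratio on array 4 by itself lowers this term. A labelling effect and the array 4 pattern therefore cannot be told apart by it.

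**Figure D3:**
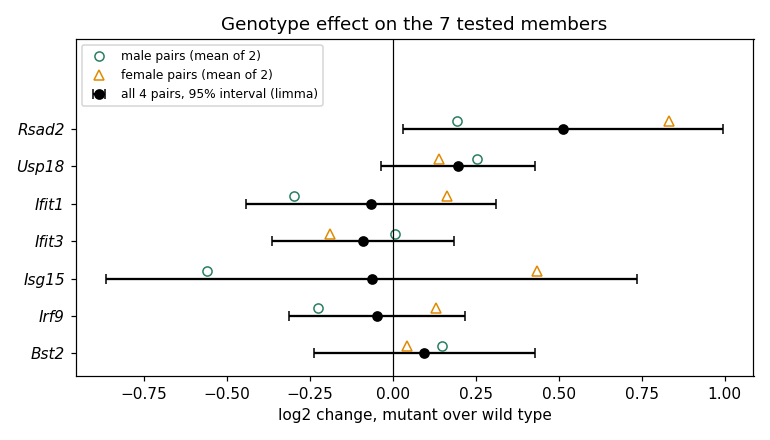
Fitted log2 change of the 7 tested members (horizontal axis) with its 95% interval from limma, and the mean ratio of the male pairs and of the female pairs. The interval contains 0 for all members but Rsad2 (0.030 to 0.99, before adjustment), and Rsad2 and Isg15 have the widest gaps between the sexes.

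The sex of the pairs was tested as a difference between the male and the female genotype effect. No member was called by this term in limma (0 of 7, beside 3.89% of all tested genes), and 3 had an unadjusted p under 0.05, beside 12.7% of all tested genes. For Rsad2 the effect was 0.19 in males and 0.83 in females, a male minus female difference of -0.64 (SE 0.24, limma adjusted p = 0.312). For Isg15 it was -0.56 in males and 0.43 in females, a difference of -0.995 (SE 0.40, limma adjusted p = 0.362), and with median centring in place of loess this difference was called (-0.80, limma adjusted p = 0.0215), in a fit that gave every gene the same SE of 0.24. Irf9 was the third, with -0.22 in males and 0.13 in females (limma adjusted p = 0.378). With 2 pairs of each sex, and ratios of -0.24 and 1.11 for Isg15 within the female pairs, the female pairs differed from each other by more than the sexes did.

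A wider list of interferon-stimulated genes was read in the same mice. Of 59 listed genes, 42 were tested, and 0 were called with genotype in limma, beside 0.0175% of all tested genes. An unadjusted p under 0.05 was found in 2, beside 5.87% of all tested genes. Fitted changes were above 0 in 27 and below 0 in 15, with a median of 0.058. Over all tested genes 6207 were above and 5246 below 0. Ratios were above 0 in 28, 14, 23 and 36 of the 42 genes on arrays 1 to 4. The shares over all tested genes were 54.4%, 51.9%, 52.5% and 48.5%. Median ratios of the list were 0.059, -0.19, 0.027 and 0.15. The mean deviation from each gene's own mean was 0.085, -0.17, -0.0050 and 0.19 in mutants 1 to 4, against -0.0080, -0.040, -0.025 and -0.027 in wild types 1 to 4. As with the tested members, mutant 4 was highest, mutant 2 was low and the wild types lay close together in this mean. Mutant 3 differed, being the lowest mouse for the members (-0.20) and near the gene means for the wider list (-0.0050).

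The 3 genes of smallest p in that list were Ifi27, at 0.19 (SE 0.071), the death ligand gene Tnfsf10 at 0.19 (SE 0.073) and the oligoadenylate synthetase-like gene Oasl1 at 0.32 (SE 0.13), each with a limma adjusted p of 0.707. Ifi27 and Tnfsf10 were above 0 on 4 of 4 arrays, as were 6.50% of all tested genes. The Ifi27 ranges, 13.36 to 13.55 in mutants and 13.11 to 13.34 in wild types, narrowly did not overlap, as in 1.20% of all tested genes. Both genes were picked by small p in the same fit, so these traits come partly from that choice. By the sex term 2 of the 42 were called (4.76%, near the 3.89% of all tested genes), Isg20, an RNA exonuclease gene, and Ube2l6, which encodes the conjugating enzyme for Isg15. Isg20 levels were 9.41, 9.29, 9.95 and 11.46 in mutants 1 to 4, against 9.64, 9.65, 9.15 and 9.92 in wild types 1 to 4. Ube2l6 levels were 8.72, 8.73, 8.93 and 10.46 in mutants 1 to 4, against 9.37, 9.75, 8.55 and 8.99 in wild types 1 to 4. Mutant 4 was the highest mouse for both, by more than 0.7 on the log2 scale. Their effects were -0.30 in males and 1.17 in females for Isg20, and -0.83 in males and 0.92 in females for Ube2l6 (limma adjusted p = 0.0101 for Isg20 and 0.0234 for Ube2l6).

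**Figure D4:**
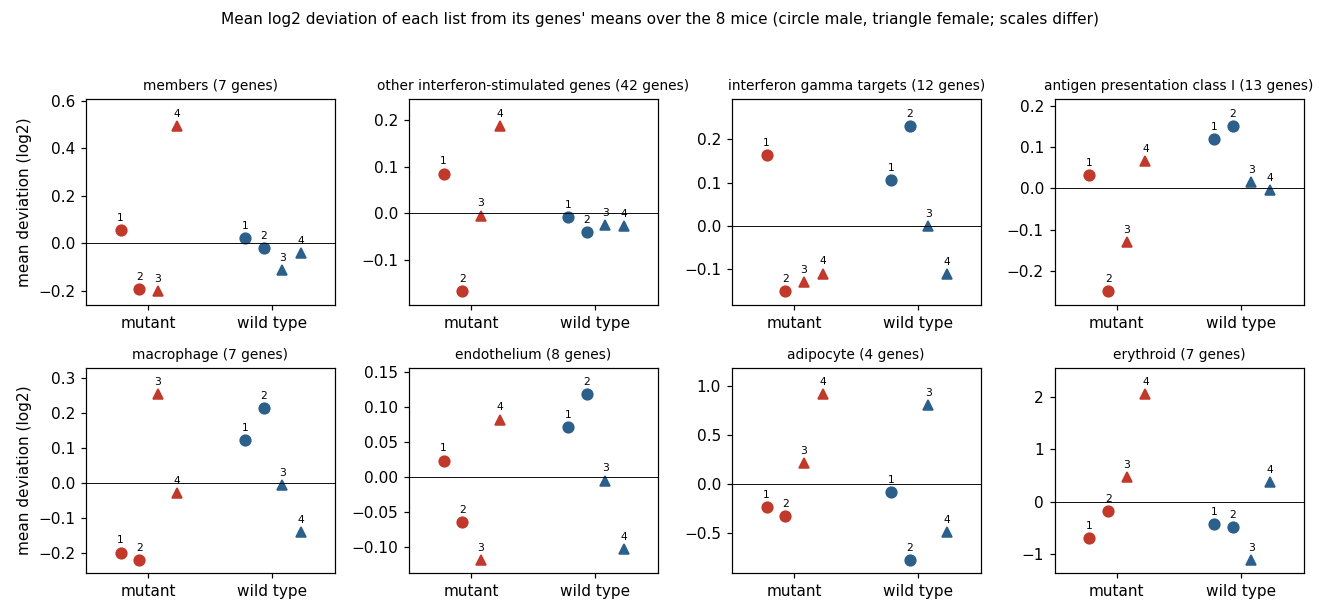
Mean log2 deviation of the tested genes of each list from their own means over the 8 mice (vertical axis, scales differ between panels), for mutants on the left and wild types on the right. Mutant 4 is the highest mouse for the 7 members (0.49), for the 42 other interferon-stimulated genes (0.19) and for the adipocyte (0.91) and erythroid (2.06) markers, and not for the macrophage markers (-0.029). In the macrophage list 6 of 7 genes still had a ratio above 0 on array 4, and mutant 4 was the lowest mutant for Itgam.

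Markers of other cell types also stood out in mutant 4, and their part in the members' values was not tested. The erythroid list, globin genes, Alas2 and Slc4a1, had 7 of 9 genes tested, and on array 4 all 7 were higher in the mutant, with a median ratio of 1.82. Its mean deviation was -0.70, -0.18, 0.47 and 2.06 in mutants 1 to 4, against -0.43, -0.50, -1.11 and 0.38 in wild types 1 to 4, and its mean log2 level ran from 12.23 to 14.98 in mutants and from 11.81 to 13.30 in wild types. On arrays 1 to 4 the erythroid median ratio was -0.28, 0.29, 1.68 and 1.82, and that of the members was 0.0067, -0.11, -0.21 and 0.48. Adipocyte markers, with 4 of 7 tested and Adipoq, Plin1 and Lep failing the filter, had a median ratio of 1.30 on array 4 and a mean log2 level from 10.11 to 11.35 in mutants and from 9.67 to 11.24 in wild types. The adipocyte mean deviation was -0.24, -0.33, 0.21 and 0.91 in mutants 1 to 4, against -0.085, -0.77, 0.80 and -0.49 in wild types 1 to 4.

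Markers of immune cells were read by mouse as well, and their part in the members' values was not tested. Macrophage markers, with 7 of 11 tested and Adgre1 and Cd163 failing the filter, had a mean deviation of -0.20, -0.22, 0.25 and -0.029 in mutants 1 to 4, against 0.12, 0.21, -0.0053 and -0.14 in wild types 1 to 4. Their mean log2 level ran from 9.19 to 9.66 in mutants and from 9.27 to 9.63 in wild types. Ratios were above 0 in 1, 1, 6 and 6 of the 7 tested on arrays 1 to 4. The list mean leans on Itgam, which varied most. Its log2 level ran from 13.11 in mutant 4 to 14.86 in mutant 2, and from 13.01 to 16.71 in wild types. Plasmacytoid dendritic cell markers had a mean deviation of -0.36, -0.33, 0.22 and -0.083 in mutants 1 to 4, against 0.38, 0.43, -0.12 and -0.14 in wild types 1 to 4. Single genes set this mean, so it is no reading of that cell type. Siglech was high in wild types 1 and 2 (17.66 and 17.84), Clec10a was low in mutant 1 (7.33), and Tcf4 stayed between 10.48 and 11.03. Of the 8 listed markers 3 were tested, and Ccr9, Ly6d, Spib, Runx2 and Klk1 failed the filter. T and NK cell markers had a mean deviation of -0.11, -0.22, 0.054 and 0.10 in mutants 1 to 4, against 0.017, -0.037, 0.017 and 0.17 in wild types 1 to 4, so that mutant 4 was the highest mutant and wild type 4 the highest mouse. Of these markers 4 of 10 were tested, and Cd3d, Cd3g, Cd8a, Ncr1, Klrb1c and Lck failed it. B and plasma cell markers left 1 gene tested, Cd79b, at 0.32 (SE 0.071, limma adjusted p = 0.707), and Cd79a, Ms4a1, Jchain and Mzb1 were among those that failed the filter. Neutrophil markers, with 2 of 8 tested, had a mean deviation of 0.21, 0.035, -0.12 and -0.068 in mutants 1 to 4, against -0.015, 0.32, -0.17 and -0.19 in wild types 1 to 4. Endothelial markers, all 8 tested, had a median ratio of 0.12 on array 4, with all 8 above 0, and a mean log2 level from 9.80 to 9.997 in mutants and from 9.81 to 10.03 in wild types.

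Upstream of the members, no ligand, receptor or signalling gene passed the test for genotype. Of 18 interferon ligand genes 14 were on the array and 2 were tested, and the probes of Ifnb1 and Ifng were well above background in 0 of 8 mice. Of the receptor chains 5 of 6 were tested, with a median change of 0.0015 and 0 called in limma or at an unadjusted p under 0.05, and the smallest p was that of Ifngr2 at 0.088 (SE 0.10, limma adjusted p = 0.850). Ifnar2, a chain of the type I receptor, was at -0.045 (SE 0.080, limma adjusted p = 0.903). Stat2, the partner of Irf9, named after its value was seen, was at 0.017 (SE 0.11, limma adjusted p = 0.974). Of 12 signalling genes 10 were tested, 7 above and 3 below 0, with 0 called in limma. An unadjusted p under 0.05 was found in 2 of them, beside 5.87% of all tested genes. Those 2 were Socs1, an inhibitor of Jak kinases, at 1.02 (SE 0.31), and the phosphatase gene Ptpn11 at 0.20 (SE 0.066), each with a limma adjusted p of 0.707. Socs3 followed at 0.23 (SE 0.11, limma adjusted p = 0.707).

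Nucleic acid sensing genes had 16 of 23 tested, 7 above and 9 below 0, a median of -0.027, and 0 called in limma or at an unadjusted p under 0.05. The smallest p values were those of Eif2ak2, the double-stranded RNA-activated kinase PKR, at 0.17 (SE 0.086, limma adjusted p = 0.707), the kinase gene Tbk1 at -0.15 (SE 0.087, limma adjusted p = 0.708) and the RNA helicase gene Ddx58, or RIG-I, at -0.15 (SE 0.092, limma adjusted p = 0.713). Interferon gamma targets had 12 of 17 tested, 5 above and 7 below 0, with a median of -0.044. Class I antigen presentation genes had 13 of 16 tested, 4 above and 9 below 0, with a median of -0.034. In both lists 0 were called in limma and 0 had an unadjusted p under 0.05. On array 4, where the members' median ratio was 0.48, that of the gamma targets was 0.032 and that of class I genes 0.12.

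The genes whose levels most resembled the members' mean standardized level over the 8 mice were Gkn3, Tnks1bp1, Hsp90ab1, Samd9l and Phf11a, with Pearson r from 0.88 to 0.93 as a description. These 8 mice share 4 arrays, and the 5 genes are the highest of all other tested genes, so some likeness comes from that choice. Samd9l is itself known to be induced by interferon. Each of the 5 was highest in mutant 4, and their fitted changes ran from -0.028 for Samd9l to 0.085 for Gkn3. Among the members themselves, r was above 0 in 15 of 21 pairs with a median of 0.20, the highest being 0.89 between Ifit1 and Isg15 and the lowest -0.63 between Usp18 and Irf9. Irf9 and Bst2 followed the others least, with all 11 of their pairs under 0.26.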

How the data were processed

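Total RNA from 8 muscles was labelled from 100 ng per sample and hybridised to 4 2-colour Agilent arrays on 1 slide with the same scan time. The scanner files, as deposited, hold foreground and background intensity for each of 62976 spots, background flags and a log10 ratio, made with Agilent Feature Extraction 10.7.3.1 per the submitters' processing notes. The authors also deposited a table of log2 values, whose channel differences correlated with the scanner ratio at r = 0.980 to 0.989 across probes. Each of its rows is centred on a median of 0, its column medians run from -0.0016 to 0.019 in mutants and from -0.062 to 0.013 in wild types, and its centring step is not given in the sources used here.

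In R 4.3.3 with limma 3.58.1, median foreground intensity was background-corrected by normexp (offset 50) and normalised by loess within each array. Control and outlier spots had weight 0, and spots of a probe were averaged. Levels are log2 after Aquantile normalisation, and no level is set against that of another gene. A probe was kept if the scanner flagged 50% or more of its spots as well above background in each of the 4 samples of either genotype, and the brightest probe represented a gene. Of 55681 probes, 27656 had 1 gene name through RefSeq accessions, and 11453 genes were tested. The limma model held genotype and dye, with 2 residual degrees of freedom, and the small number of arrays sets the precision. The sex term used a second model with 1. P-values are two-sided with Benjamini-Hochberg adjustment over all genes at 0.05. The labels call the mice biological replicates. Mice of one number share an array, and their deviations correlated at 0.38, 0.25, 0.12 and 0.50 in pairs 1 to 4, so the ratio keeps the pairing. The procedure was tested on simulated data. The members and lists were chosen with earlier results of these data known. Named genes are the members, Pus1, the 3 of smallest p in a list, those that passed a test, and the 5 most like the members, and not all of those were printed. Some genes of the lists are not reported here.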

Additional observations from a re-analysis of the deposited data

Results flagged for a closer look

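In 26 groups of 4 mice checked for a mouse far from the other 3, 3 values stood apart, where chance gives about 1 in 20. Rsad2 was 9.85 in mutant 4, against 7.89 to 7.95 in the other mutants. Ube2l6 was 10.46 in mutant 4, against 8.72 to 8.93 in the other mutants. Ifit3 was 8.64 in wild type 2, against 9.19 to 9.23 in the other wild types.

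For the male minus female difference in genotype effect, limma called 0 of the 7 tested members, with 3 at an unadjusted p under 0.05 and 1, Isg15, called with median centring. It called 15 of 147 tested genes of the other lists (10.2%), beside 3.89% of all tested genes. The lists were chosen with earlier results of these data known, and 6 of the 15 were erythroid genes. The higher share is therefore no measure of an excess. Negative values mean a lower mutant-to-wild-type ratio in males. Of the interferon-stimulated genes, the male minus female difference was -1.47 for Isg20 and -1.75 for Ube2l6. It was -1.99 for the interferon gene Ifna11, -1.08 for the RNA sensor gene Tlr7, -1.85 for the guanylate-binding protein gene Gbp6 and -3.27 for the class I gene H2-Q4. It was -1.46 for the myeloid integrin gene Itgam and -2.00 for the plasmacytoid dendritic cell marker Siglech. Erythroid genes, 6 of 7 called, gave -1.43 for Hba-a2, -1.42 for Alas2, -1.77 for Hbb-bt, -1.64 for Hba-a1, -1.87 for Hbb-b1 and -2.00 for Hbb-b2, and the globin probes may share transcripts of near-identical genes. Socs1 gave 1.37, the 1 positive difference of the 15. Ifna11 was well above background in 3 of 4 mutants and 4 of 4 wild types, and Socs1 in 4 of 4 mutants and 3 of 4 wild types, so each passed the filter through the genotype where it was high. Each sex had 2 pairs, with the dyes exchanged between them, so the dye term can take up a difference between pairs of 1 sex. For H2-Q4 the ratios were -2.18 and -4.095 in the male pairs and 0.93 and -0.67 in the female pairs, yet the SE of the sex difference was 0.15. The small SE of such calls does not show that the pairs of a sex were alike.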

How the results depend on the processing

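The 7 tested members were refitted under 13 alternatives each, 91 values in all, and 84 kept their direction and stayed short of the threshold. The other 7 reversed, each with 1 replicate left out. Either change of filter, dropping the dye term, dropping the replicate block and the median over probes left every member's fitted change unaltered. Those settings moved the SE and p alone, so they are no check on direction. Bst2 was -0.058 without replicate 1 and -0.0061 without replicate 4, Irf9 was 0.068 without replicate 1 and 0.017 without replicate 2, Ifit1 was 0.15 and Isg15 0.43 without replicate 2, and Ifit3 was 0.043 without replicate 3. With 1 replicate left out, the range was -0.058 to 0.25 for Bst2, -0.28 to 0.15 for Ifit1, -0.22 to 0.043 for Ifit3, -0.16 to 0.068 for Irf9, -0.56 to 0.43 for Isg15, 0.23 to 0.80 for Rsad2 and 0.10 to 0.29 for Usp18. With the scanner's log ratio and with the authors' deposited table Rsad2 was 0.85 in both, and Usp18 was 0.44 with the scanner's log ratio and 0.48 with the table, so that 2 members, not 1, had an unadjusted p under 0.05 in each. No member was called by genotype under any alternative, with a limma adjusted p from 0.155 to 1.00 for Rsad2. With no replicate block, 3 genes in all were called, against 2 with the pairing, and the members' fitted changes were the same by construction. The count of all genes called was 267 with median centring (38 higher, 229 lower), in a fit whose estimated prior degrees of freedom were infinite and which gave every gene the same SE of 0.16, 1 with no dye term, and 0 with the scanner's log ratio, the authors' deposited table or probes well above background in all 8 samples, where 782, 724 and 628 genes had an unadjusted p under 0.05. It was 0 without any 1 replicate (0 to 0, with 302 to 1157 at an unadjusted p under 0.05). With median centring 1 member, Isg15, was called by the sex term, again with 1 SE, 0.24, for every gene. The cause of the other moves was not tested. Ifit2, Irf7 and the dimmer Isg15 probe lay near background, which limits what their ratios can show.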

Other observations

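Among genes of the pathway and cell type marker lists, 4 printed here were highest in the male wild types. The marker genes Itgam, Csf1r and Flt1 shared this, so it was not limited to the 4. Itgam levels were 15.67 and 16.71 in wild types 1 and 2, against 13.01 to 14.86 in the other mice. For Isg15, Irf9 and Ifit1 among the members the male wild types also lay among the 3 highest mice. Siglech log2 levels were 16.33, 15.54, 16.49 and 16.18 in mutants 1 to 4, against 17.66, 17.84, 15.89 and 16.40 in wild types 1 to 4. H2-Q4 levels were 14.64, 13.97, 14.69 and 13.82 in mutants 1 to 4, against 16.83, 18.07, 13.76 and 14.48 in wild types 1 to 4. Gbp6 levels were 11.21, 11.68, 10.52 and 10.09 in mutants 1 to 4, against 12.66, 13.87, 10.19 and 10.34 in wild types 1 to 4. Ifna11 levels were 7.66, 7.61, 7.29 and 6.82 in mutants 1 to 4, against 8.89, 10.61, 7.24 and 7.13 in wild types 1 to 4. For all 4 genes, wild types 1 and 2 were the 2 highest mice.

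Socs1, which is induced by interferon and by other cytokines and inhibits Jak kinases, had log2 levels of 8.78, 8.44, 7.63 and 7.18 in mutants 1 to 4, against 7.11, 6.69, 7.03 and 7.09 in wild types 1 to 4. It passed the filter through the mutants, and wild type 2 was not well above background, so its low values are near background. The Socs1 ranges did not overlap, as in 1.20% of all tested genes, and both male mutants were above both female mutants. Its limma adjusted p for genotype was 0.707, and for the sex difference 0.00663.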
